A study of Mus musculus with 8 samples.

Results

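The 10 genes described here encode the parts of 2 energy-wasting cycles that brown fat can run beside uncoupling protein 1, the creatine cycle and the calcium cycle. They were listed by role, and the set was chosen by the measured rise of Ckb, the brain-type cytosolic creatine kinase, in brown adipose tissue (BAT) of Ucp1Δ/Δ mice. All 10 were among the 31053 genes of the count table, and 7 of them, with 8930 genes in all, had enough counts to be tested. RNA of BAT was sequenced from 4 WT and 4 Ucp1Δ/Δ male mice of the C57BL6/J background, labelled as 10 weeks old. In Ucp1Δ/Δ mice, labelled ATGLKO, a floxed Pnpla2 gene, which encodes the lipase ATGL, is deleted by Cre recombinase under the Ucp1 promoter, so that the deletion is directed to brown adipocytes and other cells of the tissue keep the gene. Whether the WT mice carried floxed alleles is not given in the sources used here, and 1 label field names the stromal vascular fraction, whereas the source of the RNA is given as BAT. Ucp1, the defining gene of brown adipocytes, stood at 2719 ± 1281 CPM in WT and 2152 ± 598 CPM in Ucp1Δ/Δ mice (mean ± SD, n = 4 each, where CPM is the count per 1000000 of the library's effective size).

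In the creatine cycle, arginine and glycine are joined by Gatm and the product is methylated by Gamt to give creatine, which other cells take up through the transporter Slc6a8. A creatine kinase moves phosphate from ATP to creatine, and a phosphatase such as Alpl, the tissue-nonspecific alkaline phosphatase, removes it again, so that ATP is spent without work. In the calcium cycle, the pump Atp2a2 (SERCA2) spends ATP to load the endoplasmic reticulum, and Ryr2 and Itpr1, a ryanodine and an inositol trisphosphate receptor, let the calcium out. Both cycles are known from thermogenic fat, and the same genes also serve muscle, nerve and other cells. All 10 genes are protein-coding. On the mm10 build, the creatine kinases Ckmt1 and Ckmt2 lie at chr2:121357714-121363737 and chr13:91853387-91876885. The synthesis genes Gatm and Gamt lie at chr2:122594467-122611303 and chr10:80258151-80261012. Slc6a8 lies at chrX:73673150-73682502 and Alpl at chr4:137741733-137796384. Of the calcium genes, Atp2a2 lies at chr5:122453513-122502225 and Itpr1 at chr6:108213096-108551109, and Ckb and Ryr2 are placed with their promoters.

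Total counts were 2017697 to 3115956 per mouse, with overlapping ranges in the 2 genotypes, and mitochondrially encoded genes took 38.4 to 45.6% of them. At this depth 3 counts correspond to 0.933 to 1.53 CPM, so that values of that size rest on very few reads. Pnpla2 was 2913 ± 191 CPM in WT and 474 ± 59.2 CPM in Ucp1Δ/Δ mice, a log2 fold change (log2FC) of -2.62 ± 0.17 (SE, edgeR's quasi-likelihood test, adjusted p = 1.97e-07), with no overlap between the genotypes. Skeletal muscle markers differed widely between mice of each genotype, from 141 to 2808 summed CPM in WT and from 171 to 3513 in Ucp1Δ/Δ mice.

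Of the 10 genes, Ckb and Ryr2 were higher in Ucp1Δ/Δ mice, none was called lower (0 also at an unadjusted p under 0.05 with edgeR, and by DESeq2 and limma), 5 were tested and not called, and Ckmt1, Ckmt2 and Gatm had too few counts for the test. The background was large: 21.0% of all 8930 tested genes passed an adjusted p of 0.05 in either direction (edgeR), 13.3% as higher and 7.63% as lower. Ckb and Ryr2 were also the 2 genes whose values did not overlap between genotypes, where 23.7% of all tested genes did not overlap, 14.4% with Ucp1Δ/Δ higher and 9.37% with it lower. Ckb chose the set, and Ryr2, with no count in WT, entered the test only through the Ucp1Δ/Δ mice. Nothing particular to the set is therefore read from 2 of 7 tested members, and each gene is described by its own values. In a bulk sample, more or fewer cells of a type and more or less RNA per cell cannot be told apart.

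**Figure D1:**
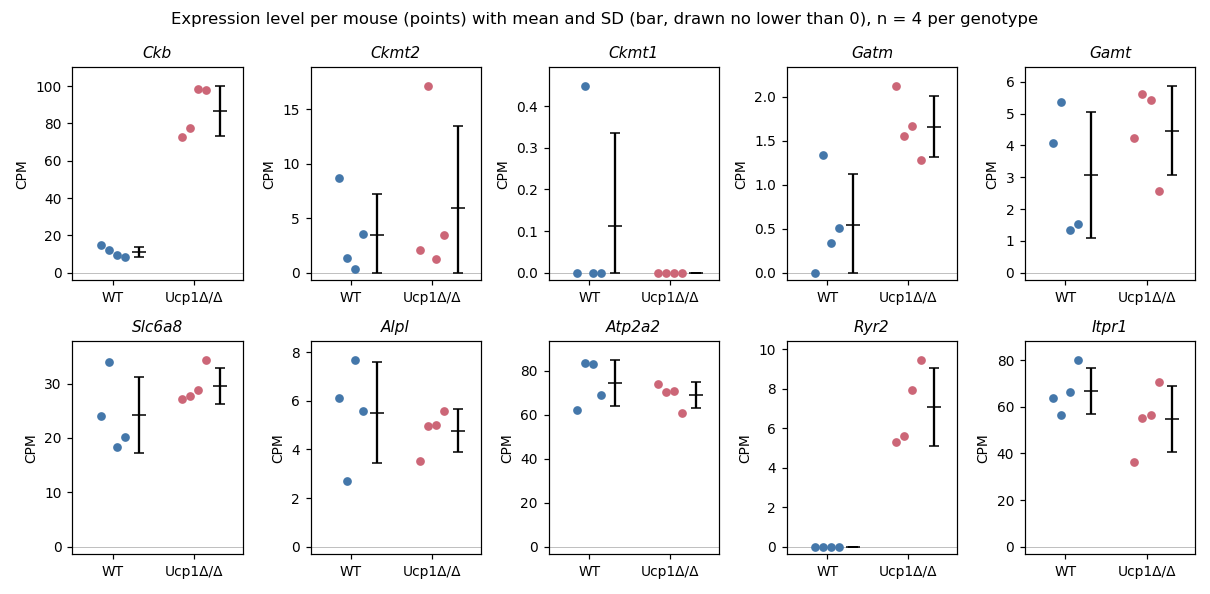
CPM (vertical axis, linear, a scale for each gene) of the 10 genes in each of 4 WT mice (blue) and 4 Ucp1Δ/Δ mice (red), with the mean and SD beside the points. The Ucp1Δ/Δ mice lie above every WT mouse for Ckb and Ryr2, and the genotypes overlap for the other 8 genes.

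The promoters of Ckb and Ryr2 are shown because these are the members that were higher, and both are taken from RefSeq's mouse sequence of the GRCm38.p6 build, 250 bases up to the base before the annotated start, on the gene's strand. Ckb lies on the minus strand of chromosome 12 at chr12:111669361-111672338, and its promoter at chr12:111672339-111672588. Ryr2 lies on the minus strand of chromosome 13 at chr13:11553102-12106945, and its promoter at chr13:12106946-12107195. Capitals mark matches to any of 6 motifs, searched on both strands: the TATA box as TATAAA, the CCAAT box by its name, the GC box as GGGCGG, the E-box as CANNTG, the half-site of estrogen-related receptors as AAGGTCA and the cyclic AMP response element as TGACGTCA. No matches overlap.
Ckb: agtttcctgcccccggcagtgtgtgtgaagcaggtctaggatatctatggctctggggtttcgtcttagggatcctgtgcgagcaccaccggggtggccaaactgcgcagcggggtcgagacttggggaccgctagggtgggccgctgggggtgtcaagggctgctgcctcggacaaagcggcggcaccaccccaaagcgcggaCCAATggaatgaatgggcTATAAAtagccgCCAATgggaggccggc
Ryr2: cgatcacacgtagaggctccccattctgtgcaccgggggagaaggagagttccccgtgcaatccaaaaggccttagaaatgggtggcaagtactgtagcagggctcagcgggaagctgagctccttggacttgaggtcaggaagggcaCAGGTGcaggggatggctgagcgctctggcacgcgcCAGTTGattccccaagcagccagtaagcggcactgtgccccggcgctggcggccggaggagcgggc
The Ckb promoter held TATAAA starting 28 bases before the start, with CCAAT starting 46 and 16 bases before it. TATAAA was found in 12.4% of the 32851 promoters of the same length and CCAAT in 33.8%. The Ryr2 promoter held neither, and had CANNTG starting 102 and 66 bases before the start, a match that 66.2% of all promoters hold. Neither promoter held the GC box found in 32.7% of all, the receptor half-site found in 4.08% or the cyclic AMP element found in 1.55%. Both were rich in G and C, at 62.8% for Ckb and 63.2% for Ryr2, where the median of all promoters was 52.4%. These 2 promoters were thus alike in their share of G and C and had none of the searched motifs in common. The share of G and C in the promoters of the other members is not given here.

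Ckb, the cytosolic kinase that moves phosphate between ATP and creatine, chose the list and is given without a test. It was counted 29, 27, 29 and 17 times in the 4 WT mice and 206, 250, 235 and 228 times in the 4 Ucp1Δ/Δ mice. In CPM these were 14.8, 12.1, 9.68 and 8.61 in WT and 72.9, 77.8, 98.2 and 97.9 in Ucp1Δ/Δ mice. The lowest Ucp1Δ/Δ mouse was far above the highest WT mouse. The means were 11.3 ± 2.75 and 86.7 ± 13.3 CPM (SD, n = 4 each), a ratio of 7.67, and the fitted log2FC was 2.94 ± 0.21 (SE). Leaving out any single mouse gave a log2FC between 2.83 and 3.08. No exon of another annotated gene overlaps those of Ckb.

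The mitochondrial creatine kinases, which sit between the mitochondrial membranes and charge creatine with new ATP, did not pass the count filter. Ckmt1, the ubiquitous form, had 1 count in all 8 mice together, in WT replicate 2. Ckmt2, the sarcomeric form of heart and skeletal muscle, had 17, 3, 1 and 7 counts in WT and 6, 55, 3 and 8 in Ucp1Δ/Δ mice. In CPM Ckmt2 was 8.67, 1.34, 0.334 and 3.55 in WT and 2.12, 17.1, 1.25 and 3.43 in Ucp1Δ/Δ mice, so that the genotypes overlapped and 1 Ucp1Δ/Δ mouse stood far above the other 7 mice. When every gene with at least 1 count was tested, the log2FC of Ckmt2 was 0.92 (edgeR, adjusted p = 0.161). An antisense gene overlaps 5.65% of the exon bases of Ckmt2, and whether counting used strand is not given in the sources used here.

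Ckmt2 followed the skeletal muscle markers of the samples in both genotypes. Ordered by the summed CPM of 16 skeletal muscle markers, the 8 mice ran from Ucp1Δ/Δ replicate 2 (3513 CPM) and WT replicate 1 (2808 CPM) down to Ucp1Δ/Δ replicate 3 (171 CPM) and WT replicate 3 (141 CPM). Ckmt2 took the same order but for an exchange of the third and the fourth mouse. Ckm, the muscle creatine kinase, had that order too, falling from 124 CPM in Ucp1Δ/Δ replicate 2 to 0 in WT replicate 3. The mean of Ckm was 34.9 ± 39.6 CPM in WT and 46.9 ± 53.6 CPM in Ucp1Δ/Δ mice (SD, n = 4 each), and its log2FC of 0.49, with a 95% interval of -1.43 to 2.41, was not called (edgeR, adjusted p = 0.755). Ckb did not follow it, since Ucp1Δ/Δ replicate 3, with the second lowest muscle sum, had the highest Ckb.

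**Figure D2:**
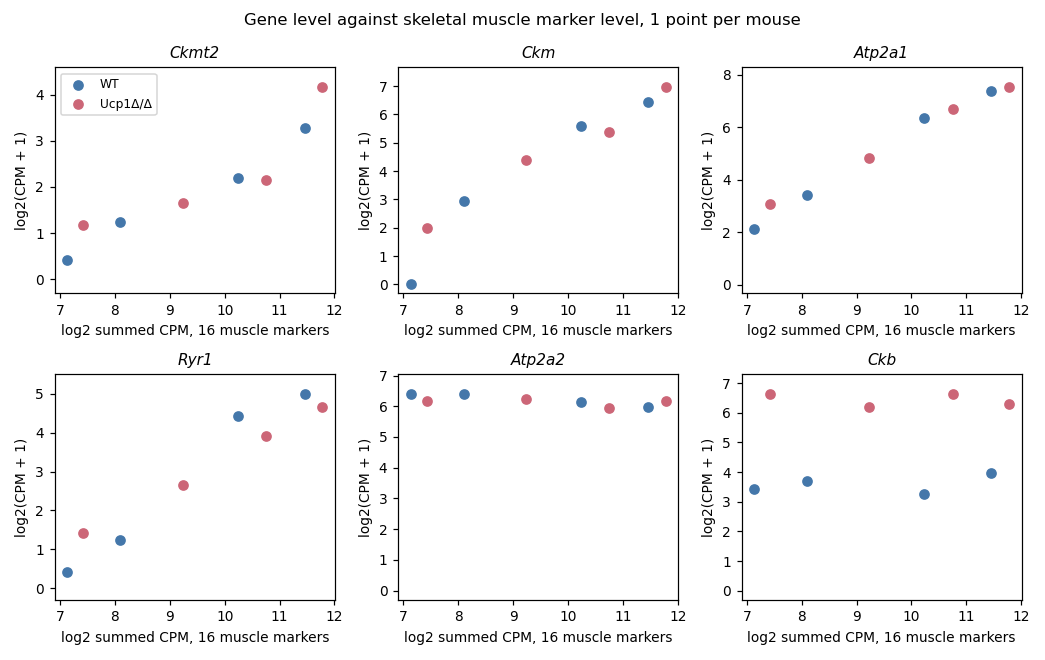
Level of 6 genes, as log2(CPM + 1) (vertical axis), against the log2 of the summed CPM of 16 skeletal muscle markers (horizontal axis), 1 point per mouse, WT in blue and Ucp1Δ/Δ in red. Ckmt2, Ckm, Atp2a1 and Ryr1 climb with the muscle markers in both genotypes, Atp2a2 stays between 60.5 and 83.3 CPM, and Ckb separates by genotype.

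The genes that make, import and dephosphorylate creatine were not called, and their levels were low apart from the transporter. Gatm, the first enzyme of synthesis, had 0, 3, 1 and 1 counts in WT and 6, 5, 4 and 3 in Ucp1Δ/Δ mice. Its means were 0.546 ± 0.572 and 1.66 ± 0.348 CPM, close to the value of 3 counts, and the highest WT mouse, at 1.34 CPM, was above the lowest Ucp1Δ/Δ mouse, at 1.29 CPM. Tested with every gene of at least 1 count, its log2FC was 1.5 (edgeR, adjusted p = 0.244). Gamt, the methyltransferase that completes creatine, was 4.08, 5.38, 1.34 and 1.52 CPM in WT and 4.25, 5.60, 5.43 and 2.58 CPM in Ucp1Δ/Δ mice. The groups overlapped, and the log2FC of 0.58, with a 95% interval of -0.38 to 1.54, was not called (edgeR, adjusted p = 0.406).

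Slc6a8, the creatine transporter, was 24.0, 34.05, 18.4 and 20.3 CPM in WT and 27.2, 27.7, 28.8 and 34.3 CPM in Ucp1Δ/Δ mice. Of the 4 WT mice, 3 were below every Ucp1Δ/Δ mouse, and WT replicate 2 was above 3 of them. The means were 24.2 ± 6.99 and 29.5 ± 3.28 CPM, and the log2FC was 0.29 ± 0.22 (SE), with a 95% interval of -0.17 to 0.75 (edgeR, adjusted p = 0.383). Alpl, the phosphatase, was 6.12, 2.69, 7.68 and 5.57 CPM in WT and 3.54, 4.98, 5.01 and 5.58 CPM in Ucp1Δ/Δ mice. The Ucp1Δ/Δ mice lay within the range of the WT mice, and the log2FC was -0.23, with a 95% interval of -0.97 to 0.51 (edgeR, adjusted p = 0.695). These intervals still hold a change of more than 1 log2 unit for Gamt, and none of that size for Slc6a8 or Alpl.

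In the calcium cycle, the release channel Ryr2, known best from the heart, was found in every Ucp1Δ/Δ mouse and in no WT mouse. Its counts were 0 in all 4 WT mice and 15, 18, 19 and 22 in the Ucp1Δ/Δ mice, which is 5.31, 5.60, 7.94 and 9.44 CPM (mean 7.07 ± 1.97, SD, n = 4). Against a floor of 3 counts over the 4 WT libraries together, 0.327 CPM, Ryr2 was at least 21.0-fold higher with Pnpla2 deleted. Its adjusted p was 5.22e-05 (edgeR's quasi-likelihood test), with the limit that a gene absent from WT enters the test only through the Ucp1Δ/Δ mice. No exon of another annotated gene overlaps those of Ryr2.

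The pump and the other release channel were well counted and were not called. Atp2a2, the pump, was 62.2, 83.3, 82.8 and 68.9 CPM in WT and 73.9, 70.3, 70.6 and 60.5 CPM in Ucp1Δ/Δ mice. The groups overlapped, and the log2FC was -0.11 ± 0.16 (SE), with a 95% interval of -0.46 to 0.24 (edgeR, adjusted p = 0.688). Itpr1, the inositol trisphosphate receptor, was 63.7, 56.4, 66.5 and 80.0 CPM in WT and 36.4, 55.4, 56.4 and 70.8 CPM in Ucp1Δ/Δ mice. Its groups overlapped too, with 1 low Ucp1Δ/Δ mouse, and its log2FC was -0.29 ± 0.20 (SE), with a 95% interval of -0.71 to 0.14 (edgeR, adjusted p = 0.359). A gene on the opposite strand overlaps 1.36% of the exon bases of Atp2a2. On the opposite strand of Itpr1, Gm44040 overlaps 0.590% of its exon bases and Gm44101 overlaps 0.988%.

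Beside the members, lists of related genes were read for both cycles. Of 36 further calcium genes, 27 were tested, and 4 were higher and none lower (0 lower also at an unadjusted p under 0.05 with edgeR, and by DESeq2 and limma), with a median log2FC of 0.27 over the 27. These 4 of 27 stand beside the 13.3% of all tested genes called higher, and 0.27 beside the median of -0.0087 over all tested genes, and nothing particular to the list is read from them. The largest was Atp2a3 (SERCA3), a pump of blood and epithelial cells, at 3.51 ± 0.421 CPM in WT and 17.4 ± 4.77 CPM in Ucp1Δ/Δ mice. Its log2FC was 2.30 ± 0.29 (SE, edgeR, adjusted p = 4.18e-05). With 6, 8, 10 and 8 counts in the WT mice, Atp2a3, like Ryr2, entered the test only through the Ucp1Δ/Δ mice, which limits its call. Atp2b1 and Atp2b4, pumps of the plasma membrane, rose by a log2FC of 0.88 (adjusted p = 0.00898) and 0.86 (adjusted p = 0.00938, both edgeR). Fkbp1a, which binds ryanodine receptors and is expressed in many cells, rose by 0.45 on the log2 scale (edgeR, adjusted p = 0.0377), a call that was lost without any 1 of 7 of the 8 mice, WT replicate 2 being the exception (adjusted p up to 0.102).

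Apart from Atp2a3, the direct counterparts of the pump and the channels did not pass the test or were too low for it. Atp2a1, the fast muscle pump, had a log2FC of 0.33 (edgeR, adjusted p = 0.831) and followed the order of the skeletal muscle sum in all 8 mice, from 184 CPM to 3.34 CPM. Ryr1, the skeletal muscle release channel, had a log2FC of -0.11 (edgeR, adjusted p = 0.944), and ran from 31.1 CPM in WT replicate 1 to 0.334 CPM in WT replicate 3. Itpr2 was 370 ± 61.1 CPM in WT and 461 ± 134 CPM in Ucp1Δ/Δ mice, with a log2FC of 0.32 and a 95% interval of -0.13 to 0.76 (edgeR, adjusted p = 0.321). Itpr3 and the pump inhibitors Pln and Sln stayed at or below 8 counts in every mouse. Ryr3 and the exchanger Slc8a1 had no count in any mouse.

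Of 16 genes around creatine synthesis and its arginine, glycine and methyl group supply, 7 were tested and 1 was called, as lower, with a median log2FC of 0.058. Among all tested genes, 7.63% were called lower and the median was -0.0087. Nothing particular to the list is read from these values. Shmt1, the cytosolic enzyme that makes glycine from serine, fell by 0.84 on the log2 scale, from 28.8 ± 1.73 to 16.2 ± 3.40 CPM (edgeR, adjusted p = 0.00761). Without the 4 mice richest in muscle counts its log2FC was -0.69 and no longer called (adjusted p = 0.175), with 2 mice left in each genotype. Phospho1, a second phosphatase, and the arginases Arg1 and Arg2 had no count in any mouse. The number called in this list was 1 to 3 with each mouse left out, at 3 without WT replicate 2 and at 2 without WT replicate 1, 3 or 4 or Ucp1Δ/Δ replicate 4.

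Of 14 genes that move phosphate between mitochondria and cytosol, 11 were tested, 8 had a log2FC below 0, and 1 was called, as lower, with a median of -0.22. Among all 8930 tested genes, 4529 had a log2FC below 0, 7.63% were called lower and the median was -0.0087. Nothing particular to the list is read from these values. Vdac1, the main channel of the outer mitochondrial membrane, fell by 0.56 on the log2 scale, from 246 ± 20.6 to 167 ± 7.43 CPM (edgeR, adjusted p = 0.0144). The call of Vdac1 was lost without Ucp1Δ/Δ replicate 3 (adjusted p = 0.0505). Over the leave-outs 0 to 2 genes of the list were called, 0 without that mouse and 2 without WT replicate 1 or 2.

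**Figure D3:**
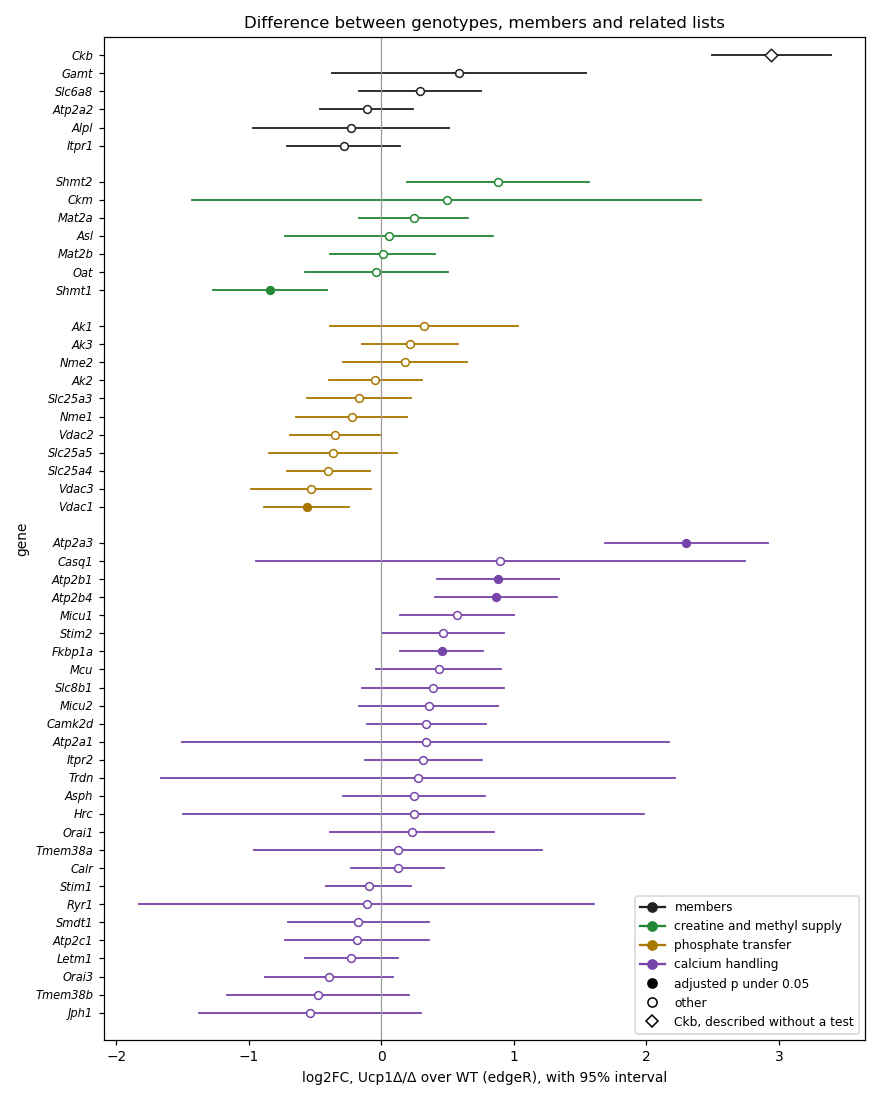
Log2FC of Ucp1Δ/Δ over WT (horizontal axis) with its 95% interval for the tested genes (vertical axis), members in black, genes of creatine and methyl supply in green, phosphate transfer in ochre and calcium handling in violet. Filled circles have an adjusted p under 0.05, the open diamond is Ckb at 2.94, and Ryr2 is left out because no WT mouse had a count.

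Ckb is expressed by many kinds of cell, and the libraries were therefore read for markers of those the tissue could hold, beside its ratio of 7.67 between genotypes. Over all tested genes, 13.3% were called higher and 7.63% lower, and every marker list is set beside these shares. Macrophage markers were higher in the Ucp1Δ/Δ mice, with 9 of 10 tested genes called higher and none lower. Their sum over 12 genes was 117 to 173 CPM in WT and 1023 to 1660 CPM in Ucp1Δ/Δ mice, 8.59 times on average. The 3 most abundant were Lyz2 (34.5 ± 11.9 and 437 ± 119 CPM), C1qa (25.2 ± 5.92 and 234 ± 63.7 CPM) and C1qb (20.6 ± 5.85 and 187 ± 45.7 CPM). Of the markers of lipid-associated macrophages, 6 of 9 tested were higher, among them Lgals3 (6.91 ± 2.002 and 336 ± 131 CPM), but their sum overlapped, at 4582 to 5674 CPM in WT and 3942 to 5554 CPM in Ucp1Δ/Δ mice, since Lpl and Cd36, which adipocytes also express, make up most of it. Of 10 markers of osteoclasts and multinucleated macrophages, 2 of the 3 tested were higher (Atp6v0d2 and Nfatc1), and Oscar and Calcr had no count. Acp5, the other tested marker and the most abundant of the list, was 106 ± 13.4 and 85.3 ± 23.1 CPM and was not called (edgeR, adjusted p = 0.303). The sums overlapped (103 to 133 and 128 to 186 CPM). In the WT mice Atp6v0d2 had 1, 0, 0 and 0 counts, Trem2 0, 1, 0 and 0, and Itgax 1, 0, 0 and 1. Cd9 had 2, 7, 0 and 2, and the macrophage marker Cd68 had 4, 10, 5 and 6. Such markers entered the test only through the Ucp1Δ/Δ mice, and their calls carry the limit given for Ryr2. What part each cell type has in the level of Ckb was not tested.

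Fibroblast markers were higher for 8 of 9 tested genes, with sums of 330 to 449 CPM in WT and 976 to 1758 CPM in Ucp1Δ/Δ mice, led by Dcn, Col3a1 and Col1a1. Of the 12 Schwann cell and neural markers, Ckb being abundant in brain, 5 were tested and 2 were higher, S100b (113 ± 29.2 and 710 ± 104 CPM) and Pmp22 (26.8 ± 6.70 and 58.9 ± 13.0 CPM). The sum of this list rose from 151 to 211 CPM in WT to 767 to 957 CPM in Ucp1Δ/Δ mice and is mostly S100b, which adipocytes also express, whereas Mbp, a myelin gene, was 26.7 ± 6.36 and 24.9 ± 2.61 CPM, and Th had no count. Smooth muscle markers had 2 of 9 higher, Acta2 and Pdgfrb (sums 240 to 330 and 350 to 386 CPM) and endothelial markers 1 of 9, Tie1 (sums 267 to 328.26 and 328.32 to 396 CPM), where 13.3% of all tested genes were called higher. Neutrophil markers were too low for a test, with Ly6g and Mpo at 0, 1 of 8 lymphocyte markers was tested and not called, with Cd79a at 0, and none of 5 erythroid or 13 tested skeletal muscle markers was called (0 also at an unadjusted p under 0.05, edgeR).

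Markers of the adipocytes themselves were called in both directions, but more of them had a log2FC below 0 than above. The brown list had 6 below and 4 above, and the general list 7 below and 1 above. Of 10 brown adipocyte markers, Dio2 was higher and Cidea and Elovl3 were lower, and the sums overlapped (6428 to 16020 and 5536 to 9257 CPM). The most abundant, Cidea, fell by 1.16 on the log2 scale (edgeR, adjusted p = 0.00211), while Ucp1 had a log2FC of -0.34 (edgeR, adjusted p = 0.481). Of 8 general adipocyte markers, Lep was higher and Adipoq and Plin1 were lower. The sums did not overlap, at 10354 to 11950 CPM in WT and 7144 to 10074 CPM in Ucp1Δ/Δ mice. Lep had only 1, 2, 0 and 13 counts in the WT mice. Over all tested genes, 13.3% were called higher and 7.63% lower.

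Among the 4 Ucp1Δ/Δ mice the order of Ckb differed from that of the macrophage markers. Relative to the mean of these mice, Ckb was 0.841, 0.897, 1.13 and 1.13 in replicates 1 to 4, a coefficient of variation of 15.3%. The macrophage sum was 1.05, 1.31, 0.805 and 0.834, highest in replicate 2, where Ckb was low, and lowest in replicate 3, where Ckb was highest. Ryr2, like Ckb, was lower in replicates 1 and 2 than in replicates 3 and 4. The endothelial sum and the smooth muscle and pericyte sum also shared the lowest mouse, replicate 1, and the highest, replicate 3, with Ckb, and S100b and the Schwann cell and neural sum shared the highest. Ckb was nearly tied at the top, at 98.2 CPM in replicate 3 and 97.9 CPM in replicate 4. The smooth muscle and pericyte sum was nearly tied too, at 1.04 in replicate 3 and 1.03 in replicate 2. Sharing the highest mouse with Ckb therefore says little. With 4 mice these orders are a description, and the spread of Ckb among them is small beside the gap to WT.

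**Figure D4:**
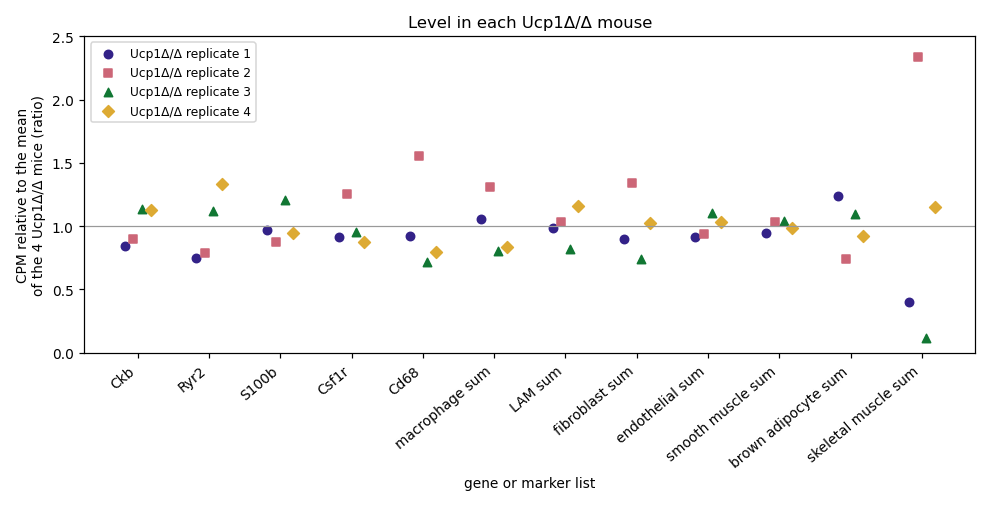
CPM in each of the 4 Ucp1Δ/Δ mice divided by their mean (vertical axis, ratio) for 5 genes and for the sums of 7 marker lists (horizontal axis), with a symbol and colour for each mouse. Replicate 2 is high for the macrophage (1.31), fibroblast (1.34) and skeletal muscle (2.34) sums and below 1 for Ckb, Ryr2 and S100b.

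Across all 8 mice, the genes most like Ckb were sought among the 6427 tested genes with a mean of at least 10 CPM, by the root mean square difference (RMS) of log2 CPM after setting each gene to its own WT mean. The 6 nearest were Csf1r (RMS 0.260), S100b (0.264), Nek6 (0.309), Pkp2 (0.326), Ptprc (0.327) and Basp1 (0.345). Csf1r, a growth factor receptor of macrophages, was 23.3 ± 3.38 CPM in WT and 166 ± 29.0 CPM in Ucp1Δ/Δ mice. Ptprc encodes CD45, found on all leukocytes, and was 6.10 ± 2.08 and 47.6 ± 2.47 CPM. S100b, a calcium-binding protein of glia and adipocytes, was described above, and Pkp2, a protein of desmosomes, was 4.05 ± 1.18 and 39.4 ± 7.27 CPM. Nek6, a kinase of mitosis, was 4.00 ± 1.48 and 31.5 ± 5.73 CPM. Basp1, a membrane-bound protein abundant in neurons, was 3.37 ± 1.16 and 30.1 ± 9.82 CPM, with its highest Ucp1Δ/Δ mouse in replicate 2. The likeness is set chiefly by the size of the step between genotypes, which these genes share with Ckb by the way they were sought.

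**Figure D5:**
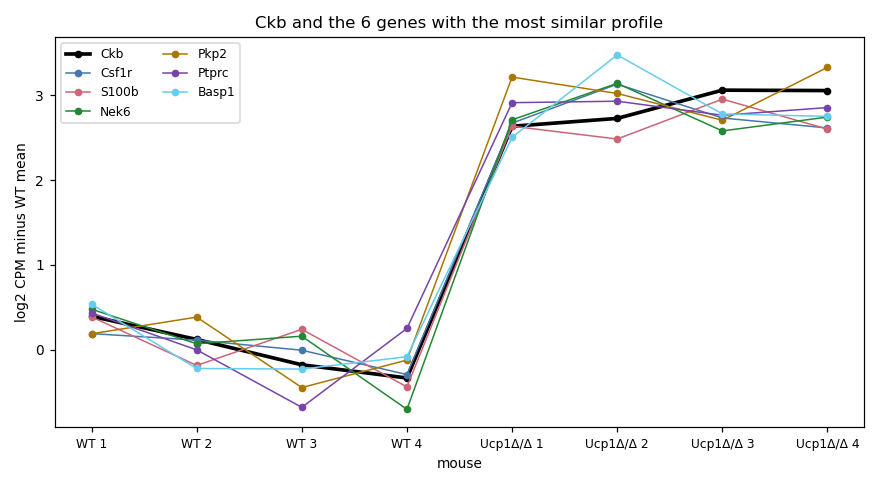
Log2 CPM minus the gene's own WT mean (vertical axis) in the 4 WT and 4 Ucp1Δ/Δ mice (horizontal axis) for Ckb (thick black line) and the 6 genes nearest to it, the lines only joining the points of a gene. Ckb lies between 2.63 and 3.06 in the Ucp1Δ/Δ mice, and in replicate 3 it is above the other 6 genes.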

How the data were processed

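Bulk RNA-seq of BAT from 4 WT and 4 Ucp1Δ/Δ mice was analysed, with groups and replicate numbers from the sample labels. Single-end reads of a digital mRNA-seq service were, by the authors' methods, trimmed with bbduk, aligned to mm10 with STAR and counted per gene with HTseq-counts, whereas the submitters' processing notes name Trimmomatic, HISAT2 and DESeq2. The strand setting and annotation release are not given in the sources used here. The authors deposited whole-number counts per gene, without normalization, used for all main results. The authors also deposited log2 values, the log2 of a scaled count plus 1, used for 1 alternative. Symbols, positions and exon overlaps came from GENCODE (31011 of 31053 identifiers had a symbol), and promoters from RefSeq (GRCm38.p6, 7 of 10 members had an entry).

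Genes were filtered with filterByExpr (minimum count 10), scaled by TMM and tested on genotype with edgeR 4.0.16 (quasi-likelihood, Benjamini-Hochberg over all tested genes) in R 4.3.3. TMM-scaled totals underlie CPM, and a prior count of 2 was used for log2 CPM. The SE of a log2FC is its size divided by the square root of the test's F statistic, and the 95% intervals are built from that SE. The tests were checked on simulated counts. Alternatives were DESeq2 (version 1.42.0), limma (version 3.58.1), other scalings and filters, and each mouse left out.

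The members, the 3 related lists and the 13 marker lists were chosen with earlier results of these data known, so no list is independent evidence. Named were all members, Pnpla2 and Ucp1, and the 6 genes most like Ckb. In each related list, up to 4 genes per direction with the smallest adjusted p under 0.05 were named, with the direct counterparts of members. In marker lists, genes at 0 and only part of the 3 most abundant genes were named. Fabp4, Rgs5 and Egfl7, the most abundant general adipocyte, smooth muscle and endothelial markers, were not called (edgeR) and are not described above. Slc8a1, Arg1, Arg2, Dio2, Elovl3, Lep, Plin1, Pdgfrb, Tie1, Trem2, Itgax, Cd9 and Cd68 were named after their values were seen. Nothing in the labels says whether the 4 mice of a genotype were littermates or of separate litters. The p-values set the difference between genotypes against the spread between these mice, a spread estimated partly over all genes. Floors of 3 counts cover counting error only. The age given in the paper's legend differs from that of the labels.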

Additional observations from a re-analysis of the deposited data

Results flagged for a closer look

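In 54 groups of 4 mice, the gap between an extreme mouse and its nearest neighbour was compared with the group's range, and 4 groups passed Dixon's 95% critical value, where about 1 in 20, or 2.7, would by chance. Ckmt2 in Ucp1Δ/Δ replicate 2, the mouse with the most skeletal muscle counts, had a ratio of 0.863, at 17.1 CPM where the other 3 were at most 3.43 CPM. Ckmt1 in WT replicate 2 had a ratio of 1.0, which rests on a single count. Fkbp1a in Ucp1Δ/Δ replicate 4 had a ratio of 0.870, and Basp1 in WT replicate 1 a ratio of 0.848.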

How the results depend on the processing

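Ckb had a log2FC of 2.83 to 3.08 over single mice left out and 2.87 to 3.08 over the other alternatives. Because Ckb was chosen for its rise in these mice, its direction in these refits is no independent support. Members called were 1 with at least 10 counts in every mouse, a filter that removes Ryr2 and leaves Ckb, which chose the set. Genes called numbered 1195 under that filter and 1025 without the 4 mice with the most skeletal muscle counts, a choice made after seeing the data, and 1345 to 2155 with each mouse left out. The creatine supply list, at 1, had 2 calls with total counts only, 3 with DESeq2's Wald test, 2 with limma voom, 3 with at least 1 count in any mouse, 2 without the muscle-rich mice and 1 to 3 with each mouse left out. The phosphate transfer list, at 1, had 0 with total counts only, 3 with DESeq2, 2 with voom, 2 with limma trend, 2 with at least 1 count in any mouse, 0 without the muscle-rich mice and 0 to 2 with each mouse left out. The calcium list had 3 to 5 throughout.

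Total counts moved the median log2FC of all genes to 0.13, and with it Atp2a2 to 0.029 and Ryr1 to 0.037. Directions also turned for genes that follow muscle: with single mice left out, Ckm ranged from -0.67 (without Ucp1Δ/Δ replicate 2) to 1.46, Atp2a1 from -0.49 (the same mouse) to 1.39, with -0.032 and -0.092 without WT replicates 2 and 3, and Ryr1 from -0.85 to 0.76 (without WT replicate 1). Ryr1 was also 1.29 with voom, 0.54 with trend and 0.0043 with the replicate block. The cause was not tested. Vdac1 was -0.42 with total counts (adjusted p = 0.0652) and lost its call without the muscle-rich mice (adjusted p = 0.0972).

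Same-numbered mice did not clearly deviate together (correlations of -0.0873, -0.196, 0.304 and 0.241, with 1 of 4 numbers matching best with itself). No pairing by number was detected, and 4 pairs are too few to exclude one. With the number as a block, 1719 genes and 2 members were called, and Fkbp1a lost its call. Of 281 values for single genes, 254 kept direction and side of the threshold, 14 lost their call and 13 turned. At 2017697 to 3115956 counts per mouse, Ckmt1, Ckmt2 and Gatm did not pass the main filter. With at least 1 count in any mouse they were tested and not called (adjusted p of 0.539, 0.161 and 0.244, edgeR).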
